A study of Mus musculus with 31 samples.

Results

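Use of immunoglobulin V genes was read from gene counts in 31 mouse libraries, as the share of each V gene in the counts of its locus. The members are all genes whose symbol starts with Ighv (heavy chain) or Igkv (kappa light chain) followed by a digit, 343 of the 55276 gene symbols in the pre-lymphoma and CD4-Cre tables and likewise 343 symbols among the 49315 Ensembl genes of the CD4-CreERT2 tables. Of these, 183 are Ighv genes between positions 113572927 and 116010093 of chromosome 12 (build mm10, the same assembly as GRCm38), and 160 are Igkv genes between positions 67555497 and 70704177 of chromosome 6. The annotation used here (GENCODE M21) lists 113 Ighv genes as functional and 70 as pseudogenes, in 16 families, and 100 Igkv genes as functional and 60 as pseudogenes, in 20 families. Of all members, 18 Ighv and 5 Igkv genes had no count in any library.

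The study compared normal, pre-lymphoma and tumor mice of strain label C57B/6 in models of peripheral T cell lymphoma, in which a conditional Vav1-Myo1f fusion allele is switched on in cells that express Cre from the Cd4 gene's control elements. The CD4-Cre set held whole spleens of 3 tumor mice (CD4-CreVav1Myo1f fl/wt) and 3 controls (CD4-Cre(WT)), and CD4+ T cells of 4 tumor mice and 3 controls with the same genotype labels. The CD4-CreERT2 set, in which Cre acts when tamoxifen is given, held whole spleens of 3 tumor mice (CD4-CreERT2Vav1Myo1f fl/wt) and 3 controls (CD4-CreERT2 (WT)), and CD4+ T cells of 2 tumor mice and 2 controls. In the pre-lymphoma set, all libraries are of CD4+ T cells, and its groups are 3 libraries whose genotype label names the fusion on both sides of a slash (fusion/fusion), 3 whose label joins control and fusion by a slash (control/fusion), and 2 controls (CD4-Cre-ERT2(WT)). All groups carry a Cre per the labels, and neither the age of the mice nor whether libraries of a group came from littermates is given there. Mice are called here by the number in the library title. The number VM645 stands on a tumor CD4+ library and on control CD4+ and spleen libraries, which the labels give different genotypes.

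An antibody chain is encoded by a V gene joined by DNA recombination to D and J segments (heavy chain) or to a J segment (light chain) in each developing B cell. A V gene is transcribed at a high level only after this joining, so V gene counts in a tissue mostly read which rearranged genes its B cells and plasma cells carry. Plasma cells hold far more immunoglobulin mRNA than resting B cells, so a few secreting clones can fill a large share of such counts. T cells do not make these transcripts as a rule, and V gene counts of a CD4+ library are therefore described as carry-over from other cells.

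6 V genes took over 25% of the counts of their locus in at least 1 spleen, and their reference sequences are shown because the results below turn on them. Ighv14-2 lies at chr12:113994469-113994898, Ighv4-1 at chr12:113948282-113948796 and Ighv1-76 at chr12:115847881-115848331, all on the minus strand. Igkv1-135 lies at chr6:67609713-67610508 and Igkv3-4 at chr6:70671788-70672377, both on the plus strand, and Igkv5-39 at chr6:69900424-69900977 on the minus strand. Each sequence is the last 300 bases of the coding sequence (298 for Igkv5-39), all within the exon that encodes most of the V domain, 5′ to 3′, from the GENCODE M21 transcripts of GRCm38. Capitals mark the bases that differ from, or have no partner in, the most similar other V gene of the locus.
Ighv14-2: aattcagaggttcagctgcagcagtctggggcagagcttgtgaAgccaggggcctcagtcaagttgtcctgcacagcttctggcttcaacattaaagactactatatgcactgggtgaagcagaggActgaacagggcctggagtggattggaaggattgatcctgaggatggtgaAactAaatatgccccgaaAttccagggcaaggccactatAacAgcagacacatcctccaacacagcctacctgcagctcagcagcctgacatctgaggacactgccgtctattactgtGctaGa
Ighv4-1: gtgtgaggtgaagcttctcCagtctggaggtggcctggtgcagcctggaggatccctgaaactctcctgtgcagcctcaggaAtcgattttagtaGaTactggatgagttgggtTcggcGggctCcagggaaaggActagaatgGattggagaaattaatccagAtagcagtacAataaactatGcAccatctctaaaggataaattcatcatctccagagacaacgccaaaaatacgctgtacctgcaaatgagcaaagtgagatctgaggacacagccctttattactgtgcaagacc
Ighv1-76: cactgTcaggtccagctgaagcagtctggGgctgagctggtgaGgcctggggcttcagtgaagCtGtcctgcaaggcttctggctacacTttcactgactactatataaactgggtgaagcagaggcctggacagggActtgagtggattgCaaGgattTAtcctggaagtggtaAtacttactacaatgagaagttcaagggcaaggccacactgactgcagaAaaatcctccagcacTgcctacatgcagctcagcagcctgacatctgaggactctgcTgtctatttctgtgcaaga
Igkv1-135: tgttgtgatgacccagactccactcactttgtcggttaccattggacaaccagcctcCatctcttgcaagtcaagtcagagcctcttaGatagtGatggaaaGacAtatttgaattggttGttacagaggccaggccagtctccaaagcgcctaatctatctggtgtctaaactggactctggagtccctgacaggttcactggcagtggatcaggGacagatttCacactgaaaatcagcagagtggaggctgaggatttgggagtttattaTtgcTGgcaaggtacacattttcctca
Igkv3-4: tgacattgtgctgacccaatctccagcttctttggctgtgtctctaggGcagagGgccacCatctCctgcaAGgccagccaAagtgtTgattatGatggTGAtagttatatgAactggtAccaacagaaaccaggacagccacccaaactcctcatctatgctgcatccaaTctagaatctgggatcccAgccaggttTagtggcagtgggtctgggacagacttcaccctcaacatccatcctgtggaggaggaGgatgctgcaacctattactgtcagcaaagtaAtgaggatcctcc
Igkv5-39: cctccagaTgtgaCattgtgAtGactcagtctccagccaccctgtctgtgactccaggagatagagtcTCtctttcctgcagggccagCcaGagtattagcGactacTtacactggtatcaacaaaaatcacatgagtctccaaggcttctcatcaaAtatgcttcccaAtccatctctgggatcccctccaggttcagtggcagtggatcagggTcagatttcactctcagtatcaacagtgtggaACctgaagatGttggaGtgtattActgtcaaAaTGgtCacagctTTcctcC
The most similar gene to Ighv14-2 was Ighv14-1, with 97.0% identical bases, and that to Igkv1-135 was Igkv1-133, with 96.3%. Ighv4-1 was closest to the pseudogene Ighv4-2 (95.7%), Ighv1-76 to Ighv1-77 (95%), Igkv3-4 to Igkv3-3 (93.7%) and Igkv5-39 to Igkv5-45 (91.6%). Reads from such near copies, or from a rearranged gene that carries mutations, can be split or lost in counting, so shares of close relatives are uncertain. In the spleen where Ighv14-2 was highest, Ighv14-1 took 2.81% of Ighv counts, and in the 2 spleens where Igkv1-135 was highest, Igkv1-133 took 0.59% and 0.05% of Igkv counts.

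Libraries held 12632196 to 37568512 gene counts, with a median of 29257595. Ighv counts ran from 18991 to 458013 and Igkv counts from 39557 to 1217473 per spleen, and the lowest V gene counts of any library were 2550 (Ighv) and 9349 (Igkv), in the VM645 tumor CD4+ cells. Summed T cell marker genes (8 genes) were at 4432 to 6684 CPM (counts-per-million of the library's gene counts) in CD4+ libraries and at 548 to 2227 CPM in spleens. 12 B cell markers summed to 96.7 to 3827 CPM in CD4+ libraries of both tumor sets, to 550 to 784 CPM in the pre-lymphoma set and to 1042 to 13016 CPM in spleens, so B cell transcripts were present in every CD4+ library. In such bulk samples, fewer cells of a type and less RNA per cell cannot be told apart.

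In each spleen a different mix of heavy chain V genes was in use, and the leading gene took 4.45% to 48.8% of Ighv counts. The highest share stood in a tumor spleen of the CD4-CreERT2 set, VM236, where Ighv14-2 took 48.8% of Ighv counts (exact Clopper-Pearson 95% interval 48.6% to 49.0%). In the other tumor spleens of this set the leader was Ighv4-1 in VM294, at 26.0%, and Ighv14-4 in VM231, at 8.53%. In its control spleens the leaders were Ighv1-55 in A1 (14.5%), Ighv9-3 in A3 (10.99%) and Ighv1-26 in A2 (7.61%). In the CD4-Cre set, tumor spleens were led by Ighv2-2 in VM388 (9.58%), Ighv5-17 in VM98 (7.85%) and Ighv1-76 in VM58 (4.45%). The control spleens of the set were led by Ighv1-76 in VM211 (33.5%), Ighv1-19 in VM216 (9.43%) and Ighv1-81 in VM645 (5.56%). Spleens with a heavy chain gene over 25% were thus found among tumor mice (VM236 and VM294) and among controls (VM211). Outside the spleen that each of them led, Ighv14-2 stayed between 0.18% and 2.44% and Ighv4-1 between 0.21% and 2.56% in the other 11 spleens. VM294 held 2 further genes over 10%, Ighv1-52 at 15.8% and Ighv5-17 at 11.9%, so that 3 genes made up 53.7% of its Ighv counts. Intervals on shares cover counting error only, since reads of amplified libraries are not independent molecules.

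**Figure D1:**
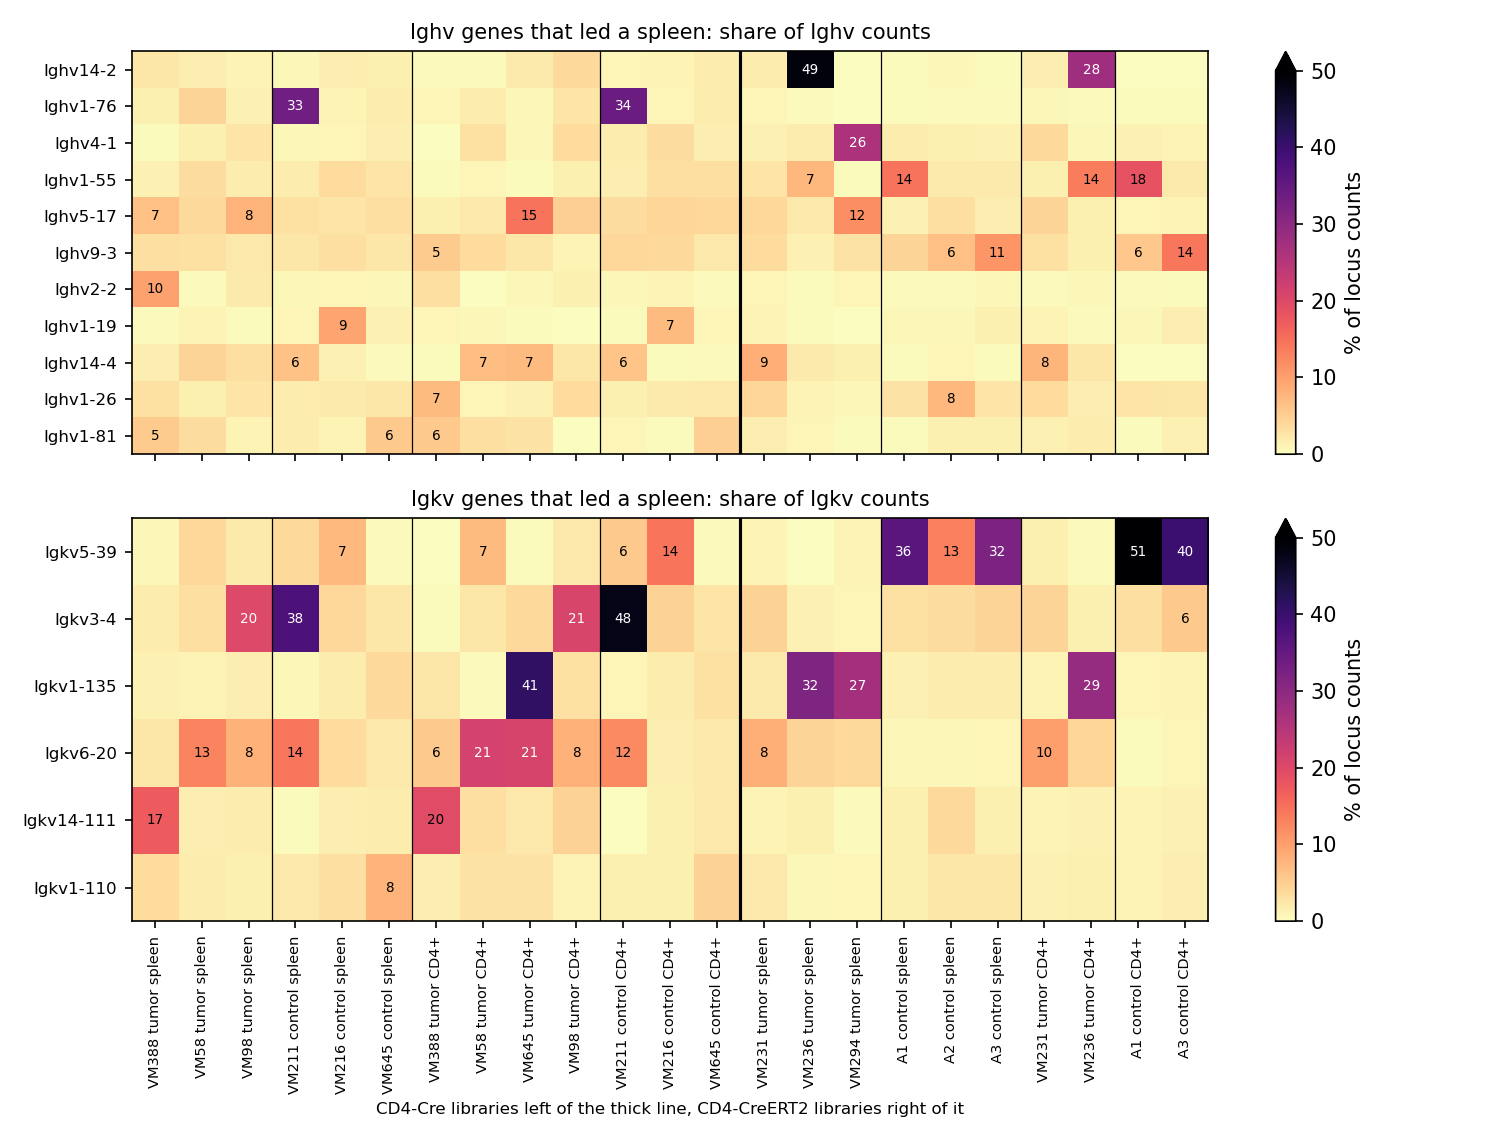
Share of each leading V gene in the counts of its locus (colour and printed value, percent of Ighv or Igkv counts; shares of 5 and above are printed). Rows are the genes that led at least 1 spleen, columns are libraries of the CD4-Cre and CD4-CreERT2 sets with tumor left of control. Dark cells, such as Ighv14-2 in VM236 (48.8%), Ighv1-76 in VM211 (33.5%) and Igkv5-39 in A1 (36.1%), stand in tumor and control spleens, and most recur in the CD4+ cells of the same mouse.

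The leading kappa gene took 7.42% to 37.9% of Igkv counts. Igkv1-135 was the leader in 2 tumor spleens of the CD4-CreERT2 set, with 31.7% of Igkv counts in VM236 and 27.1% in VM294, against 2.12% in the third tumor spleen, VM231. In the control spleens of that set Igkv1-135 took 1.34%, 1.89% and 1.83%. The tumor and control ranges do not overlap, though VM231 lay close to the controls. VM236 also held Igkv12-89 at 16.1% and VM294 Igkv6-15 at 18.7%. Igkv5-39 was low in all 3 tumor spleens of the set, at 0.99% (VM231), 0.17% (VM236) and 1.07% (VM294) of Igkv counts, and led all 3 control spleens, at 36.1% (A1), 13.2% (A2) and 31.9% (A3). These groups do not overlap, with means of 0.74% ± 0.50 in tumor and 27.1% ± 12.2 in control spleens (SD, n = 3 each). The gene was named for leading control spleens, which favours a higher share there. In the CD4-Cre set, Igkv5-39 took 0.62%, 3.98% and 1.99% in tumor spleens and 3.80%, 7.42% and 0.49% in control spleens, and these groups overlap. Igkv3-4 led the tumor spleen VM98 (20.02%) and the control spleen VM211 (37.9%), and took 1.95% and 3.20% in the other CD4-Cre tumor spleens. In the remaining CD4-Cre control spleens it took 3.98% (VM216) and 2.44% (VM645). VM388, a tumor spleen, was led by Igkv14-111 at 17.3% and Igkv2-109 at 15.6%, genes that took 0.36% to 3.88% and 0.06% to 0.92% in the other 11 spleens.

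The genes with the highest mean share over the control spleens of each set also varied among mice. Picking genes by their control share favours higher values in controls, so the direction of their differences is no support for a tumor effect. In the CD4-Cre set they were Ighv1-76, Ighv6-3 and Ighv1-19, and Igkv3-4, Igkv6-15 and Igkv6-20. Ighv6-3 took 1.12% to 1.65% in tumor spleens and 2.26% to 5.88% in controls, which do not overlap, while the other 5 genes overlapped. The share of all V genes whose tumor and control ranges do not overlap was not counted. With 3 against 3 spleens, even a full separation cannot go below an exact permutation p of 0.1. Ighv1-19 averaged 0.68% ± 0.41 in tumor and 3.89% ± 4.81 in control spleens, and Igkv6-15 averaged 5.88% ± 0.35 in tumor and 6.81% ± 3.18 in control spleens (SD, n = 3 each). In the CD4-CreERT2 set the highest means over controls were those of Ighv9-3, Ighv5-4 and Ighv1-55, and of Igkv5-39, Igkv6-15 and Igkv3-4. Ighv9-3 took 1.18% to 3.61% in tumor spleens and 4.33% to 10.99% in controls, without overlap. Ighv5-4 took 1.25% to 4.06% in tumor spleens and 2.16% to 8.42% in controls, and these ranges overlap, as do those of Ighv1-55, Igkv6-15 and Igkv3-4.

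As levels, none of the genes over 25% passed edgeR's quasi-likelihood test with Benjamini-Hochberg adjustment over all genes of the set. In CD4-CreERT2 spleens, Igkv5-39 stood at 106 (VM231), 30.2 (VM236) and 522 CPM (VM294) in tumor mice and at 4823 (A1), 1122 (A2) and 4027 CPM (A3) in controls, without overlap. The log2 fold change was -3.09 (SE 1.26, adjusted p = 0.234). Igkv1-135 stood at 227, 5650 and 13278 CPM in the same tumor spleens and at 179, 160 and 231 CPM in controls, so that VM231 lay among the controls. Its log2 fold change was 5.83 (SE 1.49, adjusted p = 0.144). The log2 fold change was 5.39 for Ighv14-2 (SE 1.72, adjusted p = 0.184) and 3.17 for Ighv4-1 (SE 1.29, adjusted p = 0.234). In CD4-Cre spleens it was -3.38 for Ighv1-76 (SE 1.40, adjusted p = 0.353), of which the control VM211 held 33.5% of Ighv counts and the other controls 1.14% and 1.86%, and -0.95 for Igkv3-4 (SE 1.82, adjusted p = 0.848).

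Diversity of V gene use overlapped between tumor and control spleens. It was measured as the effective number of genes, the number of equally used genes that would give the same concentration (the inverse Simpson index of the shares). The effective number of Ighv genes was 28.3 (VM388), 41.9 (VM58) and 30.3 (VM98) in CD4-Cre tumor spleens, with a mean of 33.5 ± 7.36, against 7.89 (VM211), 34.2 (VM216) and 44.0 (VM645) in controls, with a mean of 28.7 ± 18.7 (SD, n = 3 each). In CD4-CreERT2 spleens it was 36.9 (VM231), 4.01 (VM236) and 8.47 (VM294) in tumor mice, with a mean of 16.5 ± 17.9, and 21.1 (A1), 37.1 (A2) and 29.5 (A3) in controls, with a mean of 29.2 ± 7.98 (SD, n = 3 each). Tumor and control values overlap in both sets, though the 2 lowest tumor values of the CD4-CreERT2 set lie under all its controls. Within a set, an exact two-sided permutation test gave p = 0.9 (CD4-Cre) and p = 0.3 (CD4-CreERT2), where 3 against 3 spleens cannot go below 0.1. With labels permuted within both sets at once, the mean difference was -3.95 genes (exact p = 0.635, Benjamini-Hochberg adjusted p = 0.961 over 14 tests). It was -9.15 without the control VM211 and -0.13 without the control VM645.

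**Figure D2:**
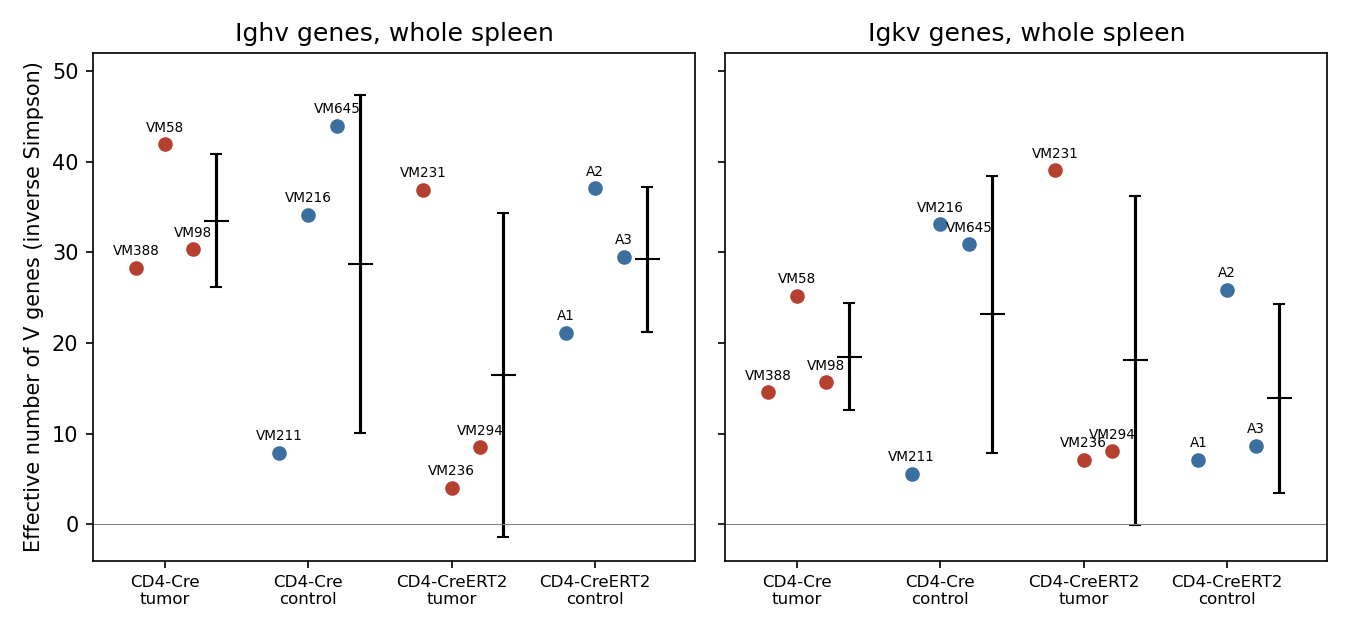
Effective number of Ighv genes (left) and Igkv genes (right) in each spleen, by set, with tumor spleens (red) left of control spleens (blue); black bars are mean and SD of 3 spleens. Tumor and control values overlap in both sets and loci, and the lowest values are those of VM236 (4.01, tumor) for Ighv and VM211 (5.59, control) for Igkv.

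The effective number of Igkv genes was 14.6 (VM388), 25.2 (VM58) and 15.7 (VM98) in CD4-Cre tumor spleens and 5.59 (VM211), 33.1 (VM216) and 30.9 (VM645) in controls. The means were 18.5 ± 5.87 in tumor and 23.2 ± 15.3 in control spleens (SD, n = 3 each; exact two-sided permutation p = 0.8). In the CD4-CreERT2 set it was 39.1 (VM231), 7.12 (VM236) and 8.04 (VM294) in tumor spleens and 7.10 (A1), 25.9 (A2) and 8.68 (A3) in controls, with means of 18.1 ± 18.2 in tumor and 13.9 ± 10.4 in control spleens (SD, n = 3 each; exact p = 0.8). Over both sets the difference was -0.26 genes (exact p = 0.985). VM236 and the control A1 held nearly the same effective number of kappa genes, with different leading genes.

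The share of the leading gene also overlapped between tumor and control spleens. For Ighv it averaged 7.29% ± 2.61 in CD4-Cre tumor spleens and 16.2% ± 15.1 in controls, and 27.8% ± 20.2 in CD4-CreERT2 tumor spleens and 11.02% ± 3.42 in controls (SD, n = 3 each). The mean difference over both sets was 3.94 percentage points (exact two-sided permutation p = 0.65). For Igkv the leader averaged 16.7% ± 3.64 in tumor and 17.8% ± 17.4 in control spleens of the CD4-Cre set, and 22.4% ± 12.4 in tumor and 27.1% ± 12.2 in control spleens of the CD4-CreERT2 set (SD, n = 3 each), a difference over both sets of -2.87 percentage points (exact p = 0.73). The tumor effect on Ighv effective number was 17.6 genes lower in the CD4-CreERT2 than in the CD4-Cre set, and that on the leading Ighv share 25.6 percentage points higher. Neither difference between sets passed its exact permutation test (p = 0.3 and p = 0.155), nor did those for Igkv (effective number, p = 0.57; leading share, p = 0.815). Each library was also left out in turn. Without VM231, the spleen with the lowest leading Ighv share of its tumor group, the difference between sets in that share was 35.2 points (exact p = 0.045, unadjusted). With all spleens its adjusted p was 0.613 (exact permutation, Benjamini-Hochberg over 14 tests). The difference between sets in Ighv effective number ran from -27.8 (without VM231) to -7.21 (without VM211).

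Spleens of different mice shared part of their V gene use. Usage overlap, the sum over genes of the lower of the shares in a pair of libraries, was 26.9% to 42.6% for Ighv among CD4-CreERT2 tumor spleens and 63.9% to 74.2% among their controls (3 pairs each), without overlap of the ranges. Among CD4-Cre spleens it was 56.4% to 60.3% for tumor pairs and 52.3% to 69.5% for control pairs. For Igkv, tumor pairs overlapped by 43.1% to 64.1% and control pairs by 69.4% to 83.9% in the CD4-CreERT2 set, and tumor pairs by 51.2% to 66.2% and control pairs by 42.2% to 68.3% in the CD4-Cre set. Pairs of a tumor and a control spleen overlapped by 36.4% to 69.3% for Igkv in the CD4-CreERT2 set and by 40.3% to 64.4% in the CD4-Cre set. Averaged over sets, tumor pairs shared 16.9 percentage points less Ighv use than control pairs (exact two-sided permutation p = 0.175, adjusted p = 0.613) and 10.2 points less Igkv use (p = 0.225, adjusted p = 0.63). The result depends on VM211, the control with Ighv1-76 and Igkv3-4 as leaders. Without it the differences were -22.2 points for Ighv (exact p = 0.03) and -18.1 points for Igkv (exact p = 0.01), unadjusted.

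Summed by family, the large Ighv1 family took a smaller share in tumor spleens of the CD4-Cre set. Its 92 genes held 44.9% to 55.5% of Ighv counts in the 3 tumor spleens and 58.6% to 64.9% in the 3 controls, which do not overlap. In CD4-CreERT2 spleens they held 25.7% to 51.1% in tumor mice and 47.0% to 58.2% in controls, which do. The Ighv5 family (21 genes) took 18.2% ± 3.3 in tumor and 9.8% ± 1.0 in control spleens of the CD4-Cre set, and 16.6% ± 11.3 in tumor and 16.0% ± 2.4 in control spleens of the CD4-CreERT2 set (SD, n = 3 each). The 4 genes of the Ighv14 family took 53.8% of Ighv counts in VM236, 11.9% in VM231 and 1.80% in VM294, against 1.13% to 2.14% in the controls of their set.

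Among kappa families, Igkv5 (6 genes) took 0.94% to 4.65% of Igkv counts in CD4-CreERT2 tumor spleens and 14.1% to 36.8% in controls, and in the controls most of it was Igkv5-39. The Igkv6 family (9 genes) took 16.6% to 29.0% in tumor and 8.92% to 12.04% in control spleens of this set, without overlap, and 14.1% to 27.04% in tumor and 15.6% to 29.5% in control spleens of the CD4-Cre set, with overlap. Igkv19, a family of 1 gene, took 3.5% to 6.7% in tumor and 0.8% to 1.8% in control spleens of the CD4-Cre set, and 1.4% to 3.0% in tumor and 2.1% to 3.2% in control spleens of the CD4-CreERT2 set. Among families over 5% of a locus in any spleen, further ranges did not overlap. In CD4-Cre spleens Ighv6 was lower in tumor mice (1.92% to 2.81%, against 3.79% to 6.66%), and Ighv5, Igkv14 and Igkv17 were higher. In CD4-CreERT2 spleens Ighv3 was lower (0.36% to 2.82%, against 3.67% to 5.93%) and Igkv4 higher. Most family ranges overlapped in each set. Family shares received no test of their own beside the index on summed families given under the processing alternatives.

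**Figure D3:**
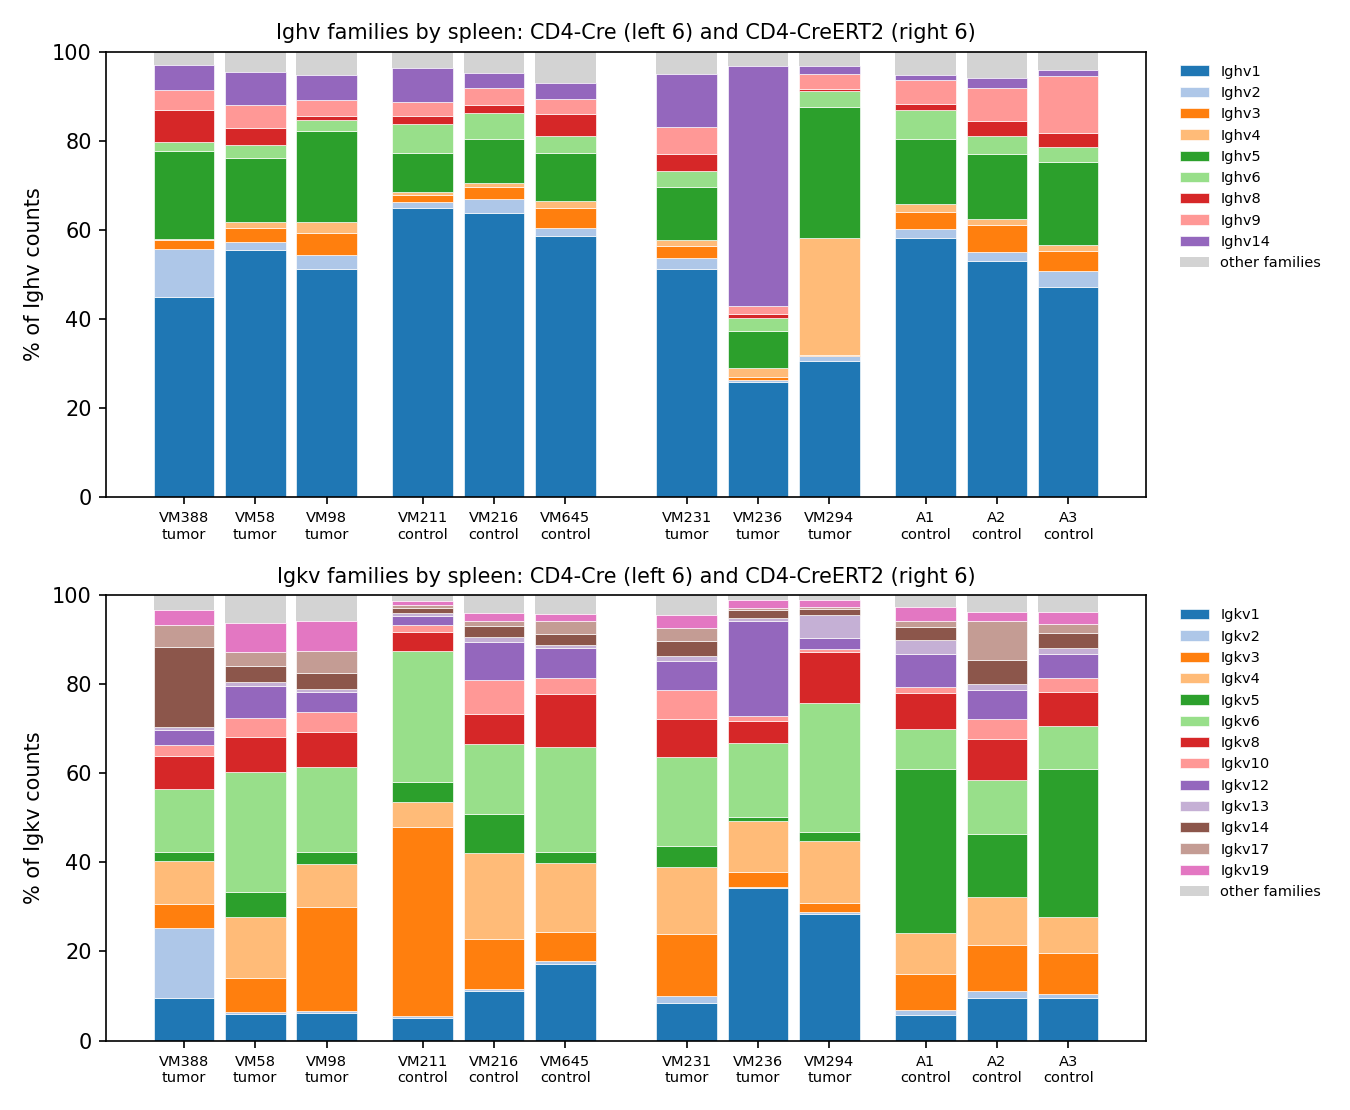
Share of Ighv counts (top) and Igkv counts (bottom) by V gene family in each spleen, as stacked bars that add to 100 percent; families over 5 percent in at least 1 spleen are coloured. The Ighv1 family is the largest in 11 spleens and is at 25.7% in VM236, where Ighv14 takes 53.8%.

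Where in the heavy chain locus the used genes lie also varied by mouse. The gene at which the summed counts reach their midpoint lay 422 kb (VM236) and 375 kb (VM294) from the V gene nearest to the D, J and constant segments, and 940 to 1721 kb from it in the other 10 spleens. VM236 and VM294 were led by Ighv14-2 and Ighv4-1, which lie at that end of the locus. In both spleens the midpoint gene is the leading gene itself, so these midpoints restate which gene led. Pseudogenes took little, with 0.060% to 0.394% of Ighv counts and 0.033% to 0.311% of Igkv counts over the 12 spleens.

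The summed level of V genes was low in 2 of the CD4-Cre tumor spleens. Ighv counts came to 739 CPM (VM388), 1849 CPM (VM58) and 12384 CPM (VM98) in tumor spleens of this set, and to 6835 (VM211), 10057 (VM216) and 11320 CPM (VM645) in controls. In the CD4-CreERT2 set they came to 6922 (VM231), 6271 (VM236) and 5467 CPM (VM294) in tumor spleens and to 8614 (A1), 4341 (A2) and 9183 CPM (A3) in controls. Igkv counts came to 1540, 2365 and 20213 CPM in the same CD4-Cre tumor spleens, against 19918, 20600 and 24040 CPM in controls. In CD4-CreERT2 spleens they came to 10691, 17842 and 48934 CPM in tumor mice and 13351, 8480 and 12626 CPM in controls. VM388 and VM58 lie under all CD4-Cre controls and VM98 does not, while VM294 held the highest kappa level of all spleens. The summed levels are given as values with no test.

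Heavy chain V gene counts were low beside the constant region counts in VM388 and VM294, and kappa V gene counts in VM388. Ighv counts per heavy chain constant region count were 0.027 in VM388 and 0.093 in VM294, both tumor spleens, and 0.202 to 0.254 in the other 10 spleens. In VM388 the constant gene of the IgG1 class, Ighg1, stood at 23389 CPM and that of IgM, Ighm, at 1232 CPM, and in VM294 they stood at 36475 and 9212 CPM. Ighg1 was at 944 to 5910 CPM in the other 4 tumor spleens and at 70.5 to 362 CPM in the 6 controls. The joining chain gene Jchain, which plasma cells express, was at 39892 CPM in VM294 and at 311 to 15020 CPM in the other 11 spleens. Igkv counts per count of the kappa constant gene Igkc were 0.283 in VM388 and 0.485 to 0.659 in the other 11 spleens. Summed plasma cell markers (11 genes) were at 1307 to 41169 CPM in the 6 tumor spleens and at 3909 to 17139 CPM in the 6 controls. Jchain weighed heavily in some of these sums, with 39892 of 41169 CPM in VM294 and 15020 of 17139 CPM in the control VM645. In VM58 it was at 311 of 1307 CPM. The other genes of the list did not all follow Jchain. Sdc1 stood at 13.7 CPM in VM294 and at 78.3 (A1), 36.5 (A2) and 60.2 CPM (A3) in the controls of its set. Log2 fold changes in CD4-CreERT2 spleens were 2.88 for Jchain, 3.27 for Fkbp11, 0.78 for Xbp1, 0.76 for Tnfrsf17 and 0.29 for Mzb1. They were negative for Irf4 (-0.74), Txndc5 (-0.56), Prdm1 (-0.18), Sdc1 (-0.14), Derl3 (-0.11) and Slamf7 (-0.05). Over the 11 genes, median log2 fold changes were 0.29 (CD4-Cre) and -0.05 (CD4-CreERT2), and 0 passed edgeR's test in either set. The part of plasma cell number in these V gene levels was not tested.

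Tested gene by gene in the spleens, 0 V genes passed edgeR's test at an adjusted p under 0.05 in either set. In the CD4-Cre set this holds for 109 Ighv and 103 Igkv genes that passed the filter on low counts, and 0% of all 17050 genes passed in either direction. At an unadjusted p under 0.05 there were 12 Ighv (11%) and 30 Igkv genes (29.1%), against 2373 (13.9%) of all genes. The Ighv share was thus below and the Igkv share above that of all genes. Median log2 fold changes were -1.16 for Ighv and -1.75 for Igkv, against 0.04 for all genes, and 24 of the Ighv and 12 of the Igkv genes were above 0. DESeq2 called 31 of 180 V genes lower and 0 higher in tumor spleens, against 1.91% of all its genes lower and 2.52% higher. Without the tumor spleen VM98, whose Ighv level of 12384 CPM was above all 3 controls, edgeR called 71 of 222 V genes lower, against 2.27% of all genes.

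In the CD4-CreERT2 spleens, 0% of 16161 genes passed in either direction. At an unadjusted p under 0.05 there were 20 of 114 Ighv and 28 of 110 Igkv genes, against 3241 (20.1%) of all genes, so the Ighv share was below and the Igkv share above that of all genes. The medians were -0.36 for Ighv and 0.81 for Igkv, against -0.02 for all genes. DESeq2 called 19 of 202 V genes higher and 7 lower there, near the 8.31% of all genes that it called higher and the 3.05% that it called lower. Without VM236 edgeR called 6 of 230 V genes higher and 1 lower, against 4.19% and 1.11% of all genes.

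Levels of B cell markers differed among the same spleens. The 12 markers summed to 5668 (VM388), 7913 (VM58) and 1576 CPM (VM98) in CD4-Cre tumor spleens and to 8557 (VM211), 6771 (VM216) and 6842 CPM (VM645) in controls, which overlap. In CD4-CreERT2 spleens they summed to 1042 (VM231), 7377 (VM236) and 1849 CPM (VM294) in tumor mice and to 11792 (A1), 13016 (A2) and 11946 CPM (A3) in controls, without overlap. All 12 were tested and 0 passed edgeR's test in either set, with median log2 fold changes of -0.86 (CD4-Cre) and -1.64 (CD4-CreERT2). Their part in the V gene levels was not tested.

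V gene use in CD4+ libraries was most like that of the same mouse's spleen. All 10 CD4+ libraries with a spleen of the same mouse overlapped most with that spleen among the 6 spleens of the set, for Ighv and for Igkv. Own-spleen overlap ran from 51.8% (VM388 tumor) to 89.7% (A1 control) for Ighv, and from 56.0% (VM388 tumor) to 87.3% (VM236 tumor) for Igkv. Its mean was 77.8% for Ighv, against 53.3% for spleens of other mice of the same set and status, and 79.9% against 51.1% for Igkv. In an exact one-sided permutation of mice within set and status, p was 0.00694 for each locus, the smallest value that its 144 arrangements can give (adjusted p = 0.0486). With the most counted gene of each CD4+ library left out, the means were 77.5% and 79.2%. The same gene led CD4+ cells and spleen in 6 of 10 mice for Ighv and in 8 of 10 for Igkv. Ighv14-2 took 27.5% of Ighv counts in the CD4+ cells of the tumor mouse VM236 and 48.8% in its spleen, and Ighv1-76 took 34.1% in CD4+ cells of the control VM211 and 33.5% in its spleen. Igkv5-39 took 1.39% (VM231) and 0.39% (VM236) of Igkv counts in tumor CD4+ cells and 51.5% (A1) and 40.0% (A3) in control CD4+ cells of the CD4-CreERT2 set. The leaders differed in CD4+ cells and spleen for Ighv in VM388 (Ighv14-3 at 13.3% in CD4+ cells), VM58 (Ighv14-4 at 6.72%), VM98 (Ighv1-72 at 8.39%) and the control VM645 (Ighv1-64 at 5.05%), and for Igkv in VM388 (Igkv6-15 at 27.8%) and the control VM645 (Igkv6-23 at 6.21%).

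**Figure D4:**
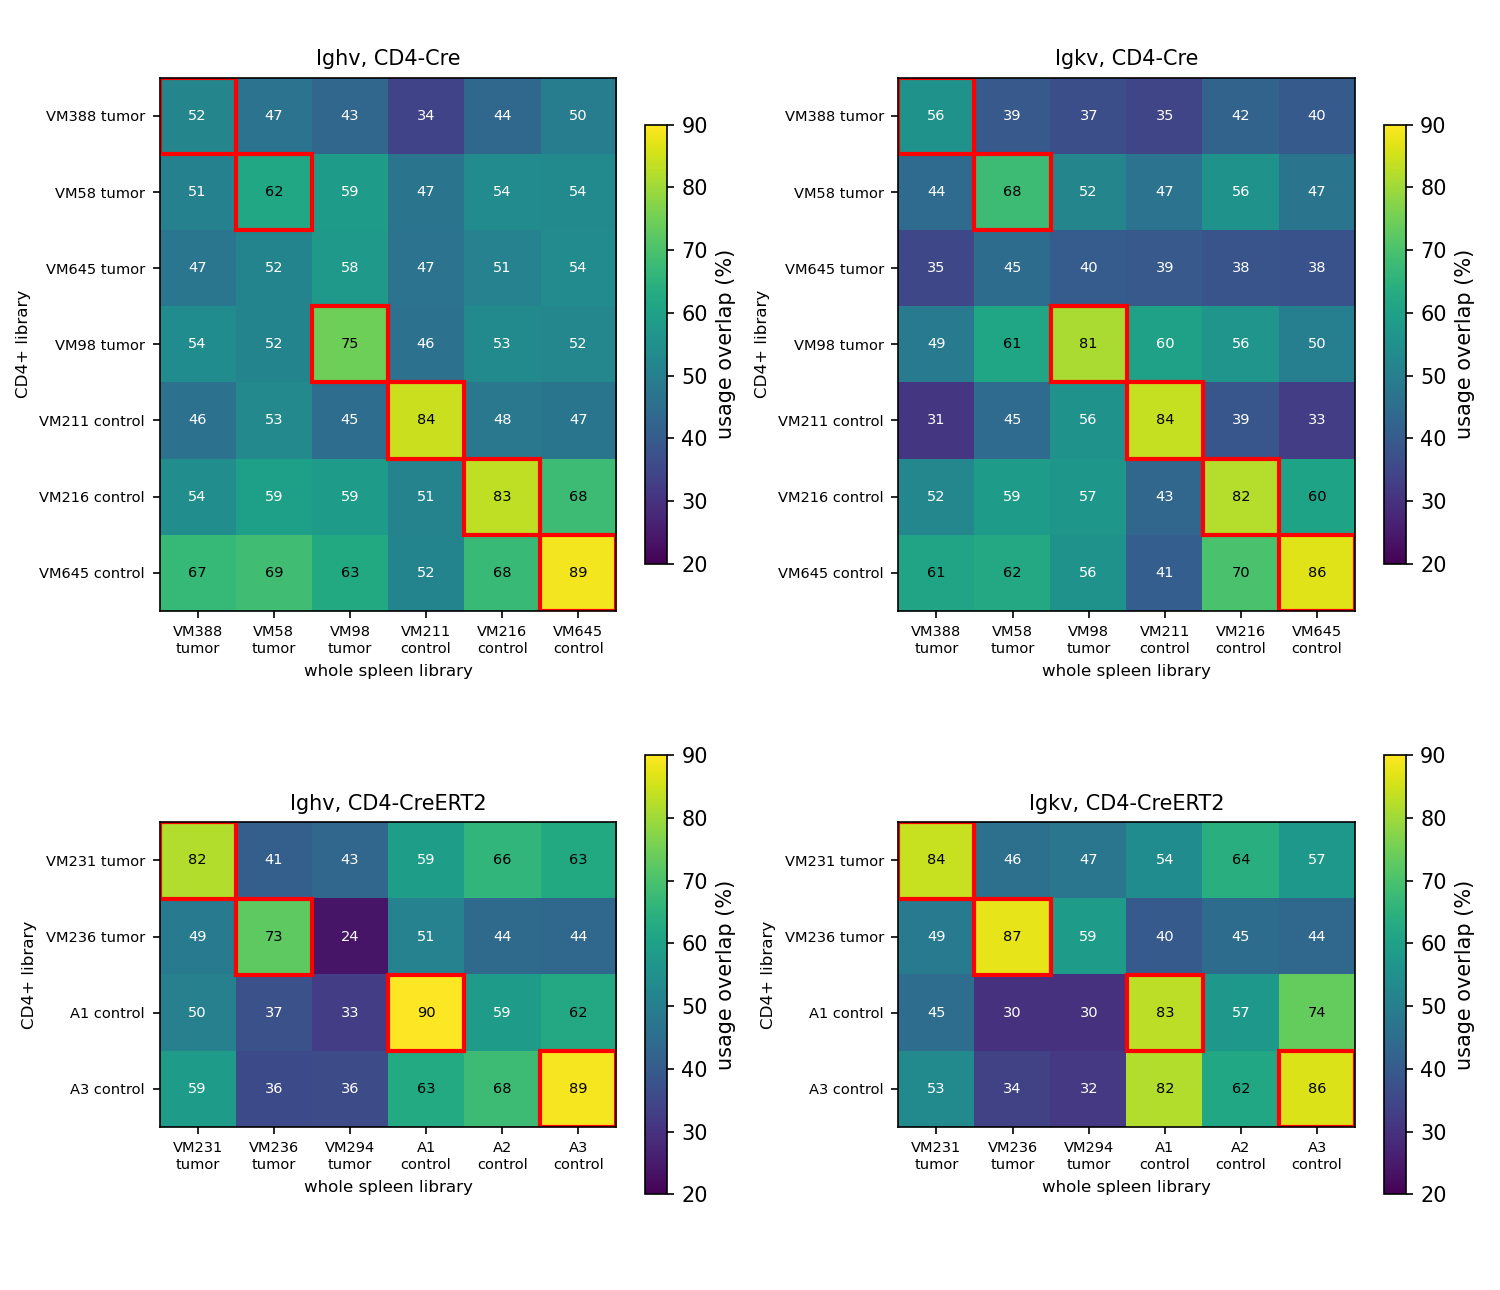
Usage overlap (percent, colour and printed value) of each CD4+ library (rows) with each spleen library of its set (columns), for Ighv (left) and Igkv (right), tumor libraries first; red frames mark libraries of the same mouse. Each framed cell is the highest of its row, from 51.8% to 89.7% for Ighv and from 56.0% to 87.3% for Igkv; the VM645 tumor row has no spleen of its own.

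The VM645 tumor CD4+ library overlapped with the VM645 control spleen by 53.8% for Ighv and 37.7% for Igkv, where the VM645 control CD4+ library overlapped with that spleen by 88.9% and 86.5%. Its highest overlap was with other tumor mice, at 57.9% with the VM98 spleen for Ighv and 44.8% with the VM58 spleen for Igkv. Igkv1-135 took 41.3% and Igkv6-20 20.9% of its Igkv counts, while Ighv1-18 led Ighv at 16.0% and Ighv5-17 followed at 14.6%. V gene levels of CD4+ libraries, described here as carry-over, varied widely beside those of the spleen. Which cells these counts came from was not tested. The Ighv level of CD4+ cells was 19.0% to 124% of the spleen's and the Igkv level 22.8% to 126% over the 10 mice, while summed B cell markers were at 10.96% to 67.9% and summed plasma cell markers at 15.6% to 129%. In 8 of the 10 mice the Ighv percentage was above that of B cell markers.

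Diversity of Ighv use in CD4+ cells overlapped between tumor and control libraries of both sets, and diversity of Igkv use overlapped in the CD4-Cre set. Effective numbers averaged 23.1 ± 6.87 for Ighv in 4 CD4-Cre tumor libraries and 27.6 ± 18.2 in 3 controls, and 22.2 ± 18.9 in 2 CD4-CreERT2 tumor libraries and 18.9 ± 4.29 in 2 controls (SD). The difference over both sets was -0.55 genes (exact two-sided permutation p = 0.962). For Igkv they averaged 10.4 ± 5.23 in CD4-Cre tumor and 21.2 ± 16.4 in control libraries, and 19.9 ± 16.3 in CD4-CreERT2 tumor and 4.72 ± 1.48 in control libraries (SD), a difference over both sets of 2.16 genes (exact p = 0.824). In the CD4-CreERT2 set the Igkv values were 31.4 (VM231) and 8.36 (VM236) in tumor CD4+ cells and 3.67 (A1) and 5.77 (A3) in control CD4+ cells, without overlap, and an exact two-sided permutation test gave p = 0.333, the smallest that 2 against 2 libraries allow.

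By edgeR, Ighv1-84 was the 1 V gene of 168 tested that passed in CD4-Cre CD4+ cells, lower in tumor cells (adjusted p = 0.0402), where 0.0168% of 17841 genes passed as higher and 0.14% as lower. It was at 0, 0, 0 and 0.08 CPM in tumor CD4+ cells and at 5.06, 11.7 and 42.1 CPM in controls, without overlap. It passed the filter on low counts only through the controls, where it is high, so the call is a description of that gene and no support for a wider change. At an unadjusted p under 0.05 there were 11 of 84 Ighv and 9 of 84 Igkv genes, both shares below the 2699 (15.1%) of all genes. DESeq2 called 14 of 112 V genes lower and 0 higher, against 3.51% of all its genes lower and 3.69% higher. The count of V genes that edgeR called lower was 0 without VM211, VM216, VM388 or either VM645 library, and 32 of 155 without VM98, where 1.89% of all genes were called lower. In CD4-CreERT2 CD4+ cells 0 of 221 V genes passed edgeR's test, as did 0% of all 17340 genes. At an unadjusted p under 0.05 there were 39 of 116 Ighv and 12 of 105 Igkv genes, against 894 (5.16%) of all genes. DESeq2 called 6 of 215 V genes higher and 22 lower, against 1.37% and 0.252% of all its genes. With 2 libraries a group, leaving out 1 tumor library moved the count to up to 46 of 224 higher (without VM236, where 10.4% of all genes were called higher) and 74 of 225 lower (without VM231, where 0.594% were called lower). Summed B cell markers were at 708 (VM231) and 2146 CPM (VM236) in tumor CD4+ cells and at 3827 (A1) and 3653 CPM (A3) in control CD4+ cells of this set, and their part in these counts was not tested.

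In the pre-lymphoma set, CD4+ libraries of the fusion/fusion group held more counts of nearly all V genes tested. Ighv genes summed to 1803, 2132 and 1685 CPM in fusion/fusion, 684, 623 and 897 CPM in control/fusion and 485 and 485 CPM in control libraries. Igkv genes summed to 2284, 2909 and 2180 CPM in fusion/fusion, 895, 790 and 1079 CPM in control/fusion and 697 and 749 CPM in control libraries. All fusion/fusion values lie above all control/fusion values, which lie above both controls. Of the V genes tested, 79 of 93 Ighv and 73 of 94 Igkv genes passed edgeR's test as higher in fusion/fusion than in control libraries and 0 as lower, with median log2 fold changes of 2.16 and 1.89. Over all 16257 genes, 23.8% passed as higher and 22% as lower, with a median of -0.01. Among members with at least 10 counts in both controls, so that high counts in the fusion group were not needed to pass the filter, 63 of 73 Ighv and 60 of 73 Igkv genes passed as higher. Control/fusion libraries had 21 Ighv genes higher and 2 lower and 12 Igkv genes higher and 0 lower than controls, against 11.6% of all genes higher and 8.7% lower. The 12 of 94 Igkv genes higher are near the share of all genes. Among members with at least 10 counts in both controls, 16 of 73 Ighv genes were higher and 2 lower, and 11 of 73 Igkv genes higher and 0 lower. The share of all genes under this rule of 10 counts was not counted in either comparison. The count of 33 V genes higher there, of 187 tested, was 18 without the control TA018 and 14 without TA019, where 8% and 3.28% of all genes were called higher. Both comparisons share the same 2 control libraries.

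Of 6 V genes that led a pre-lymphoma library, 5 rose in fusion/fusion libraries. Ighv1-26 was at 87.4, 165 and 89.8 CPM in fusion/fusion, 42.3, 29.2 and 69.1 CPM in control/fusion and 21.2 and 33.3 CPM in control libraries, and rose by 2.03 on the log2 scale in fusion/fusion (SE 0.39, edgeR adjusted p = 0.00194). Igkv1-117 was at 185, 217 and 156 CPM in fusion/fusion, 43.6, 57.0 and 76.5 CPM in control/fusion and 46.2 and 72.6 CPM in control libraries, a rise of 1.61 in fusion/fusion (SE 0.25, adjusted p = 0.000554). In both genes the fusion/fusion libraries do not overlap the others. Ighv3-6 rose by 1.65 (SE 0.38), Ighv1-81 by 1.01 (SE 0.28) and Igkv1-135 by 1.55 (SE 0.12). The exception among leaders was Igkv4-53, at 22.4, 30.3 and 18.0 CPM in fusion/fusion, 9.2, 14.0 and 9.8 CPM in control/fusion and 54.4 and 3.5 CPM in control libraries. The control TA018 alone was high, and the gene did not pass (log2 fold change -0.33, SE 0.71, edgeR adjusted p = 0.728). Igkv8-27, chosen after its values were seen for the smallest p-value of the members, was at 48.8, 58.7 and 37.2 CPM in fusion/fusion, 10.6, 12.01 and 11.5 CPM in control/fusion and 4.0 and 3.7 CPM in control libraries. The 2 genes called lower in control/fusion were Ighv1-12 (-1.17, SE 0.28, edgeR adjusted p = 0.0153) and Ighv1-9 (-0.65, SE 0.18, adjusted p = 0.0275); in fusion/fusion Ighv1-9 was higher by 1.08.

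No V gene came to dominate in this set. Effective numbers of Ighv genes were 41.1, 41.0 and 47.7 in fusion/fusion, 39.8, 42.4 and 35.7 in control/fusion and 37.8 and 32.6 in control libraries. Those of Igkv genes were 36.2, 40.4 and 39.1 in fusion/fusion, 38.1, 34.4 and 35.6 in control/fusion and 31.3 and 30.9 in control libraries. All fusion/fusion libraries lie above both controls in both loci, a difference given as values with no test. No gene took more than 8.26% of Ighv or 9.69% of Igkv counts. Any 2 of the 8 libraries overlapped by 72.1% to 83.9% for Ighv and 71.3% to 86.5% for Igkv. Constant region genes rose with the V genes: 8 of 12 passed as higher in fusion/fusion, among them Igkc (by 1.60, SE 0.19) and Ighg1 (by 7.79, SE 0.60; 1920, 4449 and 2963 CPM in fusion/fusion, 22.6, 17.1 and 51.2 CPM in control/fusion and 12.1 and 15.3 CPM in control libraries). Of 11 plasma cell markers, 10 passed as higher and 0 as lower, including Jchain (by 1.40, SE 0.19) and Sdc1 (by 1.71, SE 0.18), which encodes the surface proteoglycan CD138. Of 12 B cell markers 0 passed as higher and 5 as lower, among them Cr2 (by -0.67, SE 0.20). Beside these counts of constant, plasma cell and B cell genes, 23.8% of all genes passed as higher and 22% as lower. Which cells of these CD4+ libraries express the listed genes cannot be read from bulk counts. Summed plasma cell markers were at 1849, 1853 and 1649 CPM in fusion/fusion, 943, 870 and 985 CPM in control/fusion and 659 and 916 CPM in control libraries. Whether plasma cells account for the V gene levels of these CD4+ libraries was not tested.

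**Figure D5:**
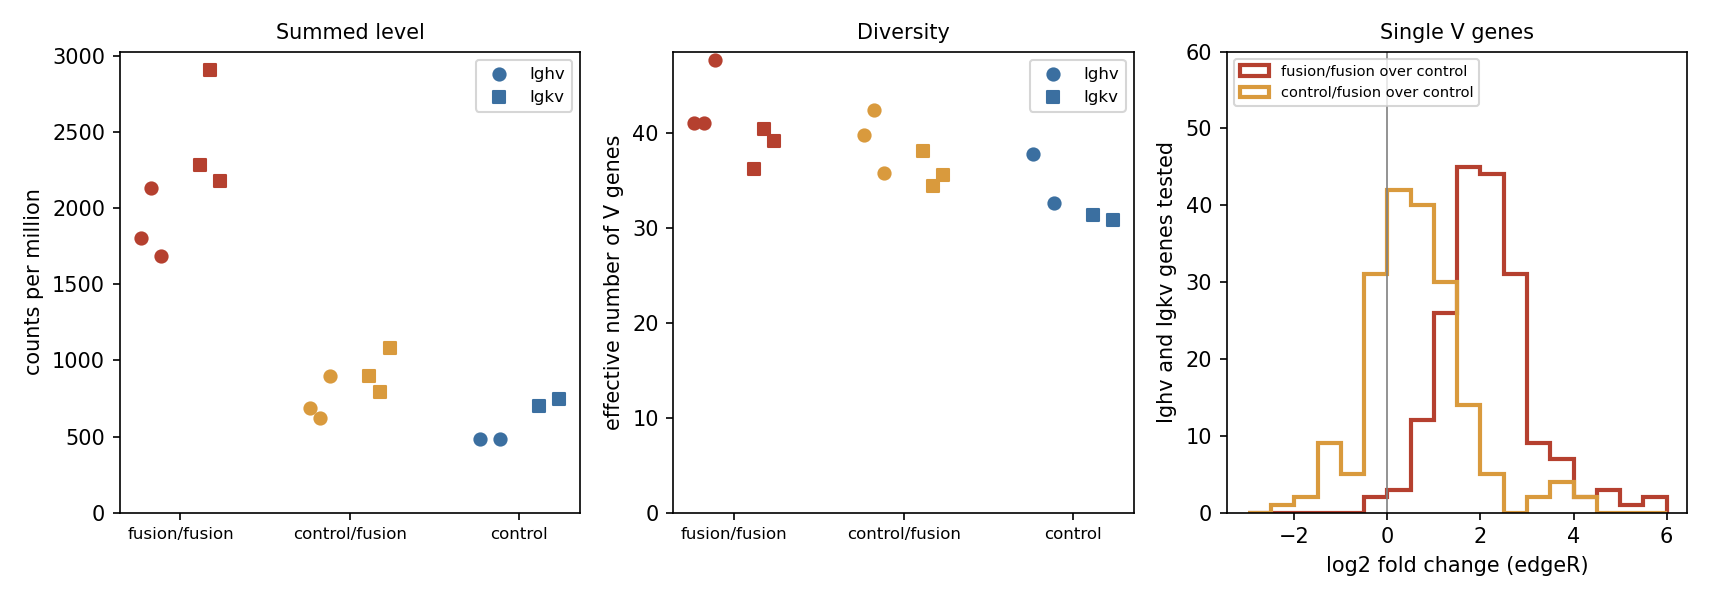
Pre-lymphoma CD4+ libraries: summed V gene level in CPM (left), effective number of V genes (middle), each point 1 library (circles Ighv, squares Igkv), and a histogram of edgeR log2 fold changes over control for the 187 Ighv and Igkv genes tested (right). Fusion/fusion libraries stand at 1685 to 2132 CPM for Ighv, above control/fusion (623 to 897 CPM) and control libraries (485 CPM each), while effective numbers lie between 30.9 and 47.7 throughout.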

How the data were processed

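Each library has 1 table of raw gene counts, deposited by the authors, who made it from polyA RNA amplified with SMART-Seq v4 chemistry, per the labels' protocols. The submitters' processing notes name HISAT2 2.1.0, HTSeq 0.5.4 and build mm10 (with GRCm38 for the CD4-CreERT2 libraries); annotation release and strand are not given in the sources used here. Rows that name no gene were 27.2% to 31.9% (pre-lymphoma) and 32.7% to 46.0% (CD4-Cre) of entries and were left out. Ensembl IDs of the CD4-CreERT2 tables were matched to symbols, and Ighv1-13 and Ighv5-8, with 2 IDs each, were summed. The members, lists, comparisons and tests were chosen with earlier results of these data known.

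Shares are percent of locus counts. CPM divides by the summed gene counts of a library. Effective numbers, leading shares and usage overlaps were compared by exact permutation within sets (scipy 1.17.1), and all genes were tested with edgeR 4.0.16 (filterByExpr, TMM, quasi-likelihood test, Benjamini-Hochberg over all genes tested), checked on simulated data. DESeq2 1.42.0 was an alternative. SEs of log2 fold changes follow from the F statistic, as the absolute change divided by its root. Labels do not say that libraries of a group came from separate litters or days, so p-values speak only of variation among these libraries, which may be technical. Named genes are those that led a library in their locus, the 3 with the highest mean share over control spleens of each set, and any that passed in a spleen comparison (none did). Others were named outside this rule. They are close copies of leading genes, or were picked by their values, as further high shares in a library or calls in CD4+ comparisons. Alternatives covered the index, depth, families, gene length, pseudogenes, scaling, the filter, libraries numbered VM645 and each library left out in turn; those on gene length, pseudogenes and the leading gene were chosen after seeing the data.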

Additional observations from a re-analysis of the deposited data

Results flagged for a closer look

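In the CD4+ cells of 4 CD4-Cre tumor mice, the library VM98 stood far above the others in V gene level. Its Ighv genes summed to 14311.5 CPM, against 84.8 to 539 CPM in the other 3 tumor libraries and 1565 to 7050 CPM in the 3 controls. Its Igkv genes summed to 19567.4 CPM, against 311 to 632 CPM in the other 3 tumor libraries and 4538 to 10396 CPM in controls. The gap to the next library was 0.968 (Ighv) and 0.983 (Igkv) of the whole range of the group. Of 9 such sets of values looked at, chance flags about 1 in 20. Summed plasma cell markers were at 8394 CPM in VM98 and at 809 to 1467 CPM in the other tumor libraries, and summed B cell markers at 1012 CPM and 96.7 to 867 CPM. Jchain alone gave 6359 CPM of the plasma cell sum in VM98 and 143 to 624 CPM in the others. Leaving VM98 out moved the count of V genes lower in CD4-Cre tumor CD4+ cells to 32 of 155 (20.6%), where 1.89% of all genes were called lower.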

How the results depend on the processing

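No paired analysis was possible because tumor and control libraries come from different mice, and the groups compared share at most 1 number, VM645. Of 198 alternatives to results with an exact test, 164 kept direction and side of the threshold. In 31 a difference that had not passed was reversed, and 3 kept direction and passed where the main value had not. Among the reversed differences, that in leading Ighv share with families summed was also under the threshold (exact permutation p = 0.04, unadjusted). With families summed, differences became 0.53 (spleen, Ighv effective number, exact p = 0.08), -9.75 points (Ighv leading share, exact p = 0.04), 0.54 (CD4+, Ighv effective number) and 0.23 (spleen, Igkv effective number). Without VM645 libraries they were 4.51 (CD4+, Ighv effective number) and 1.67 (spleen, Igkv effective number), and per base of gene length, an alternative chosen after seeing the data, 0.15 (spleen, Igkv effective number). With Shannon entropy the difference between sets in Igkv effective number was -1.36.

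With each library left out in turn, spleen differences ran from -1.31 to 8.75 points (Ighv leading share), -6.34 to 2.15 (Igkv leading share), -5.51 to 2.74 (Igkv effective number), -22.2 to -13.2 (Ighv overlap), -18.1 to -3.19 (Igkv overlap) and -9.15 to -0.13 (Ighv effective number). CD4+ differences ran from -7.22 to 6.12 (Ighv effective number) and -3.60 to 7.92 (Igkv). Differences between sets ran from 15.1 to 35.2 (Ighv leading share), -27.8 to -7.21 (Ighv effective number), -1.62 to 17.7 (Igkv effective number) and -13.7 to 3.36 (Igkv leading share).

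Counts of V genes called moved most. Without a filter on low counts, edgeR called 17 of 282 V genes lower in CD4-Cre spleens (6.03%, against 0.303% of all genes). In CD4-CreERT2 spleens it called 7 of 292 higher (2.4%, against 1.34%) and 2 lower (0.685%, against 0.0828%). In CD4-Cre CD4+ cells 22 of 284 were lower (7.75%, against 0.991%). In CD4-CreERT2 CD4+ cells 2 of 275 were higher (0.727%, against 0.154%) and 10 lower (3.64%, against 0.0475%). In control/fusion 89 of 259 were higher (34.4%, against 8.16%) and 17 lower (6.56%, against 5.59%). In fusion/fusion 184 of 259 were higher (71%, against 13.1%) and 1 lower (0.386%, against 12.6%). DESeq2 called 31 of 180 lower in CD4-Cre spleens (1.91% of all genes), and 19 of 202 higher (8.31%) and 7 lower (3.05%) in CD4-CreERT2 spleens. In CD4-Cre CD4+ cells it called 14 of 112 lower (3.51% of all genes). In CD4-CreERT2 CD4+ cells it called 6 of 215 higher (1.37%) and 22 lower (0.252%). In control/fusion it called 35 of 167 higher (21%, against 13% of all genes) and 4 lower (2.4%, against 8.81%). With all groups of the set fitted by edgeR, 3 of 217 were lower in CD4-Cre CD4+ cells (1.38%, against 0.497% of all genes). Without the VM645 libraries 0 of 171 were lower, as were 0% of all genes. With a library left out, counts ran from 0 to 71 lower (CD4-Cre spleen), 0 to 6 higher and 0 to 1 lower (CD4-CreERT2 spleen), 0 to 32 lower (CD4-Cre CD4+), 0 to 46 higher and 0 to 74 lower (CD4-CreERT2 CD4+), 14 to 35 higher and 1 to 4 lower (control/fusion), 0 to 1 lower and 129 to 159 higher (fusion/fusion, 152 with all libraries). Fits without TA018 or TA019, and all those of CD4-CreERT2 CD4+ cells, leave 1 library in a group. Among the other pre-lymphoma fits, control/fusion ran from 24 of 180 higher (13.3%, against 10.4% of all genes, without TA022) to 35 of 188 (18.6%, against 9.73%, without TA021). Fusion/fusion ran from 140 of 175 higher (80%, against 23.1% of all genes, without TA023) to 159 of 188 (84.6%, against 23.4%, without TA020). The cause of the moves in these counts was not tested. Own-mouse overlap passed its exact test under the 5 alternatives run per locus (unadjusted p of 0.00694 to 0.0208), with means of 76.6% to 87.9% for Ighv and 79.1% to 87.7% for Igkv. With 3 spleens a group, the smallest exact p within a set is 0.1, so the number of mice limits what can be shown.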
